A study of Mus musculus with 2 samples.

Results

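The aminoacyl-tRNA synthetases load amino acids onto tRNA, and 36 of their genes, 20 for cytosolic and 16 for mitochondrial enzymes, were examined in Lamtor1-deficient (KO) and wild-type (WT) mouse CD4+ T cells. The members were chosen by gene name on the array, the mitochondrial ones by the ending 2, out of 31709 names in all. Their data come from 2 dual-colour Agilent arrays. One array held KO RNA in the dye Cy5 and WT RNA in Cy3, and the other held the same pair with the dyes exchanged. The labels name both arrays as biological replicate 1. Each genotype thus has 1 RNA extract, no test against biological variation was possible, and the number of arrays limits how precise a value is. Log2 ratios are KO over WT, and the ± after one is the SD between the 2 arrays, which covers technical error only.

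Both extracts came from C57BL/6J mice. Spleen CD4+CD62L+ naive T cells were isolated by magnetic sorting and cultured for 5 days on a coat of antibody to CD3, with antibody to CD28 in the medium. The T cell growth factor IL-2 (50 ng/ml) and the cytokine rhTGFβ (1 ng/ml) were added. The extraction protocol speaks of naive cells, so the labels do not settle whether the RNA was taken before or after the culture. The sources used here do not say how Lamtor1 was deleted, in which cells, or how many animals gave RNA. Lamtor1, which encodes an anchor of the Ragulator complex at the lysosome, was lower in KO, with log2 ratios of −1.97 where KO was in Cy5 and −1.93 where it was in Cy3. Pairs of array values below are given in this order. The sources used here do not say whether its probe lies in the deleted part, so this ratio is no firm check of the labels.

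Each synthetase recognises 1 amino acid and its tRNAs, except the protein of Eprs, which carries the enzymes for glutamate and proline. Mitochondria translate their own few messages with a separate set of synthetases, encoded in the nucleus and imported, whereas Gars and Kars supply both compartments from a single gene. In the cytosol, several synthetases sit together in the multisynthetase complex, held by the scaffold proteins of Aimp1, Aimp2 and Eef1e1. Uncharged tRNA activates the kinase encoded by Eif2ak4 (Gcn2), and the transcription factor Atf4, made in that response, is known to drive many cytosolic synthetase genes together with genes of amino acid synthesis and uptake. Atf4 is also known to be raised by the lysosomal kinase complex mTORC1, which Ragulator recruits.

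The cytosolic synthetases were lower in the KO extract and the mitochondrial ones lay near no change. A gene was called lower or higher when it was 2-fold or more apart on both arrays, the same way on each. Of the 35 members measured above background, 9 were called lower, 0 were called higher and 26 were not called. All 9 were cytosolic: 9 of 20 cytosolic genes (45%) and 0 of 15 measured mitochondrial genes were lower. Among all 14879 measured genes, 6.88% were called lower (1024 genes) and 2.46% were called higher (366 genes). The median log2 ratio KO over WT was −0.93 for the cytosolic members (−1.01 and −0.88 on the arrays) and −0.10 for the mitochondrial members (−0.05 and −0.20). Over all measured genes the median was −0.02. The medians of the compartments were thus 0.96 apart on the log2 scale on the array with KO in Cy5 and 0.68 apart on the other. Of the cytosolic members, 18 lay below 0 on both arrays and 2, Farsa and Rars, above 0 on both, though below 0 under median centring in place of loess. Of the mitochondrial members, 7 lay below 0 on both arrays, 4 above 0 on both (3 of them below 0 under median centring) and 4 on different sides of 0. Nars2, the mitochondrial asparagine enzyme, was not above background in either RNA and is given no ratio. Each extract is the RNA of many cells together, so less RNA per cell and fewer cells of a type that express these genes cannot be told apart.

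**Figure D1:**
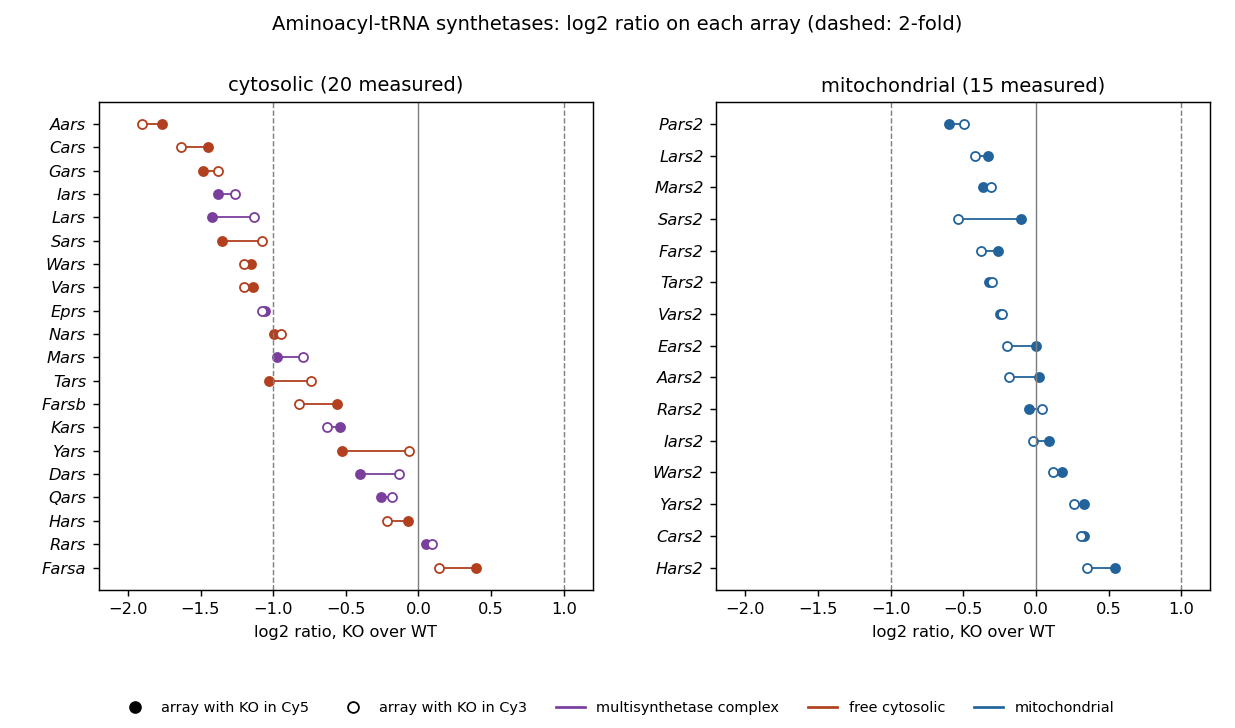
Each row is a measured synthetase gene, and the horizontal axis is the log2 ratio of KO over WT. Filled points are the array with KO in Cy5, open points the array with KO in Cy3, and dashed lines mark 2-fold. All 9 genes with both points beyond the left dashed line are in the cytosolic panel, led by Aars at −1.83, and the mitochondrial genes lie between −0.54 (Pars2) and 0.45 (Hars2). Under median centring in place of loess the ratios of Rars, Farsa, Yars2, Cars2 and Hars2 are below 0, as is the median of all measured genes (−0.37).

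Several cytosolic members carry a core of the C/EBP-ATF response element, the site at which Atf4 and its C/EBP partners are known to bind, close to an annotated start. The motif TGATGNAA, or TTNCATCA on the other strand, was searched on both strands in RefSeq promoter sequences (GRCm38.p6) that run from 250 bases before to 50 bases after a start. Of 13 cytosolic members with a promoter sequence, 5 (38.5%) held it, and 0 of 14 mitochondrial members did. It stood in 1304 of all 32851 promoters (3.97%), in 258 of 9215 measured genes with a promoter (2.8%) and in 39 of 659 genes called lower (5.92%). A 30-base window around a match is shown for each of the 5 genes because the motif was found in cytosolic members and in no mitochondrial member of the table. Capitals mark the motif, written so that it reads TGATGNAA, and positions are counted from the start used in the promoter table.
Aars, position 10 after the start, chr8:111033840-111033869, minus strand: tcagagcgctcTGATGAAAagtgacccgct
Gars, 30 bases before the start, chr6:55037960-55037989, minus strand: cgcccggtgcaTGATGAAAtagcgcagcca
Iars, position 8 after the start, chr13:49682126-49682155, minus strand: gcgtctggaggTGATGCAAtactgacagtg
Tars, 15 bases before the start, chr15:11399655-11399684, plus strand: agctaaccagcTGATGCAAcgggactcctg
Yars, position 4 after the start, chr4:129189895-129189924, plus strand: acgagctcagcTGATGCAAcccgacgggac
The match reads on the strand opposite to the gene in Aars, Gars, Iars and Tars, and on the gene's own strand in Yars. The RefSeq gene table also gives a start further upstream for Yars, within the same promoter sequence, and for Aars, upstream of the whole sequence searched. The 5 cytosolic members with a match had a median log2 ratio of −1.32, from −1.83 (Aars) to −0.30 (Yars). The 8 without a match had a median of −0.64, from −1.22 (Sars) to 0.27 (Farsa). Under median centring Farsa was −0.28, and 0.10 relative to all measured genes. The ranges overlap: Sars and Eprs were called lower with no match in the window, and Tars and Yars hold one and were not called. Cars, Hars, Lars, Nars, Rars, Vars, Wars, Hars2 and Pars2 had no entry. A match is a description of the letters and not a measured binding site.

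Aars, the alanine enzyme, had the lowest ratio of all members. Its normalized intensity was 1014 in KO against 3440 in WT on the array with KO in Cy5, and 887 against 3322 on the other. The log2 ratio was −1.83 ± 0.10 (3.56-fold lower), and 2.04% of all measured genes had a lower one. Both KO values lay below both WT values, which a call of 2-fold on each array largely fixes in advance. The probe lies at chr8:113579376-113579434 (mm9). A second, dim Aars probe was not above background in either RNA and stood at −0.15 and −0.31.

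Cars, the cysteine enzyme, followed. KO gave 1580 and 1504 and WT gave 4313 and 4672, a log2 ratio of −1.54 ± 0.13 (2.91-fold lower; probe at chr7:150743615-150743674, mm9). Gars, the glycine enzyme of both compartments, gave 6502 and 6846 in KO and 18147 and 17817 in WT, a log2 ratio of −1.43 ± 0.07 (2.70-fold; chr6:55029377-55029436). In each of these genes the WT values were close to each other on the arrays. That they lay far above both KO values follows largely from the rule for a call.

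Sars, Wars and Vars were the other free cytosolic enzymes called lower. Sars, the serine enzyme, which also charges selenocysteine tRNA, gave 4662 and 4790 in KO against 11926 and 10122 in WT (−1.22 ± 0.20, 2.32-fold; chr3:108229539-108229598). Wars, the tryptophan enzyme, which interferon γ is known to induce, gave 1589 and 1412 against 3526 and 3251 (−1.18 ± 0.04, 2.26-fold; chr12:110098245-110098304). Its second measured probe gave −0.52 and −0.91, the same direction but not 2-fold, and with the median of its probes in place of the brightest one Wars was not called. Vars, the valine enzyme, gave 841 and 668 against 1851 and 1534 (−1.17 ± 0.04, 2.25-fold; chr17:35152339-35152398). Vars and Wars were not called under median centring.

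Of the 8 enzymes of the multisynthetase complex, 3 were called lower, and its enzymes differed among themselves. Iars, for isoleucine, gave 1185 and 1242 in KO against 3090 and 2985 in WT (−1.32 ± 0.08, 2.50-fold; chr13:49829328-49829387). Lars, for leucine, gave 817 and 878 against 2184 and 1923 (−1.27 ± 0.20, 2.42-fold; chr18:42362044-42362103), and its protein is also known as a leucine sensor for mTORC1. Eprs gave 415 and 387 against 862 and 814 (−1.06 ± 0.01, 2.09-fold; chr1:187252093-187252152). It lay just inside the 2-fold rule on both arrays, at −1.05 and −1.07, and was not called under median centring. The KO and WT intensities did not overlap in any of these 3 genes, but the rule for a call largely fixes this in advance.

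The other 5 complex enzymes were not called and spanned from near the rule to no change. Mars, which charges initiator and elongator methionine tRNA, had log2 ratios of −0.98 and −0.80. Kars, the lysine enzyme of both compartments, stood at −0.54 and −0.63. Dars, for aspartate, stood at −0.40 and −0.14, and Qars, for glutamine, at −0.26 and −0.18. Rars, for arginine, stood at 0.05 and 0.09. Under median centring it was −0.10, and 0.28 relative to all measured genes. The complex enzymes had a median of −0.74 and the 12 free cytosolic enzymes, of which 6 were called lower, a median of −1.07. The medians differed by 0.33 on the array with KO in Cy5 and by 0.30 on the other, while single genes of each group ran over a range of more than 1 log2 unit, from −1.32 (Iars) to 0.07 (Rars) in the complex and from −1.83 (Aars) to 0.27 (Farsa) outside it.

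**Figure D2:**
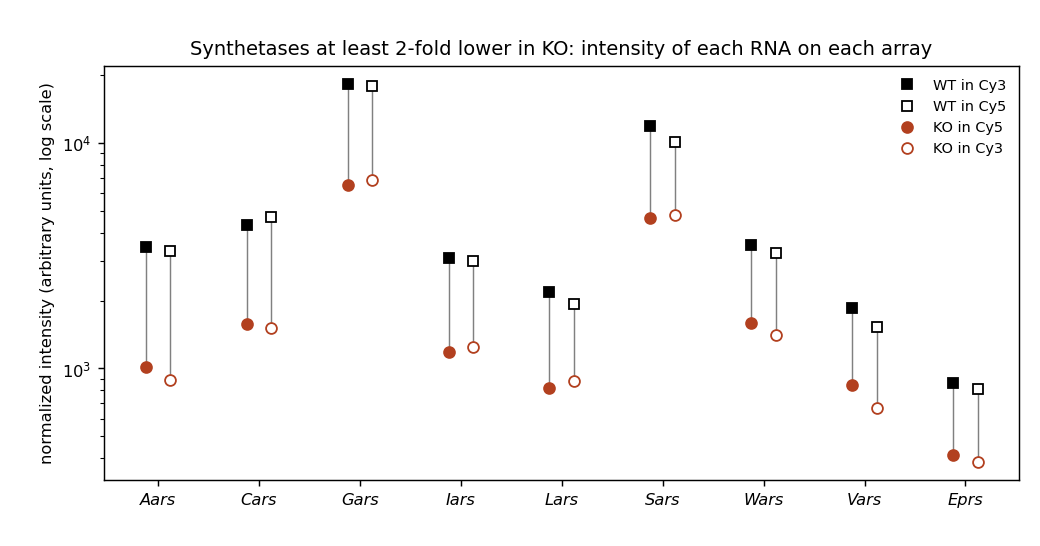
Normalized intensity in arbitrary units, on a log scale, of the 9 synthetase genes called lower; squares are WT, circles KO, filled marks the array with KO in Cy5 and open marks the array with KO in Cy3. In each gene both KO marks lie below both WT marks, from Aars at 3.56-fold to Eprs at 2.09-fold. The genes were chosen for being lower on each array, so this adds no support. Intensities of different genes come from different probes and cannot be ranked.

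The scaffold proteins that hold the complex were not called. Aimp1 stood at −0.57 (−0.59 and −0.54 on the arrays), Eef1e1 at −0.24 (−0.12 and −0.36) and Aimp2 at −0.15 (−0.15 and −0.16). All 3 lay below 0 on both arrays, with Aimp1 close to Kars and Aimp2 close to Qars.

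Among the free cytosolic enzymes that were not called, Nars, for asparagine, came closest to the rule, at −0.99 and −0.95. Tars, for threonine, passed 2-fold on only 1 array, at −1.03 and −0.74. Nars, Tars and Mars were called when 1.5-fold stood in place of 2-fold, which gave 12 members lower. Hars, for histidine, stood at −0.07 and −0.21. Yars, for tyrosine, stood at −0.53 and −0.07, and in KO its dim probe was above background on only 1 array. With the software's processed signals, which carry no offset, Yars was −0.93, so its ratio depends on how the background is treated.

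Farsa and Farsb encode the α and β subunits of 1 enzyme, the cytosolic phenylalanine synthetase, and their ratios had opposite signs after loess, but not under median centring. Farsb gave 960 and 827 in KO and 1414 and 1459 in WT, log2 ratios of −0.56 and −0.82. Farsa gave 1466 and 1361 in KO and 1116 and 1233 in WT, log2 ratios of 0.39 and 0.14. The KO values of Farsa lay above its WT values on both arrays, and a second Farsa probe gave 0.47 and 0.11. Under median centring, which moved the median of all measured genes to −0.37, Farsa was −0.28, and 0.10 relative to all genes. The ratio of Farsb lay below that of Farsa on both arrays, and neither gene was called.

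Of the 2 structural classes of synthetase, which differ in the fold of their catalytic site, the cytosolic class I genes had the lower median. It was −1.17 for 9 class I genes, with 5 called lower, and −0.79 for 10 class II genes, with 3 called lower; Eprs holds a domain of each class and is in neither. The ranges overlapped almost fully, since the lowest member of all, Aars, is in class II.

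The mitochondrial members varied around no change and none was called. Pars2, for proline, was the lowest at −0.60 and −0.49, though Mars2 was lower with the processed signals (−0.97, against −0.53 for Pars2) and with an offset of 1 (−0.61 against −0.58). Pars2 had intensities of 357 and 388 in KO and 539 and 547 in WT. A group of 6 followed at similar values. Lars2 stood at −0.33 and −0.42, Mars2 at −0.36 and −0.31 (in KO above background on 1 array) and Sars2 at −0.11 and −0.54. These charge leucine, methionine and serine tRNA in mitochondria. Fars2 stood at −0.26 and −0.38, Tars2 at −0.32 and −0.30, and Vars2 at −0.25 and −0.23. These charge phenylalanine, threonine and valine tRNA. The second probe of Vars2 gave 0.03 and 0.08, the only one of 7 second measured probes with a sign other than that of the probe used.

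The 4 members with arrays on different sides of 0 were all mitochondrial: Rars2 (−0.05 and 0.04), Iars2 (0.09 and −0.02), Aars2 (0.02 and −0.19) and Ears2 (0.0015 and −0.20), for arginine, isoleucine, alanine and glutamate. With Rars, they were also the members nearest to no change. Wars2, for tryptophan, lay above 0 on both arrays, at 0.18 and 0.12, and its second measured probe gave 0.56 and 0.55. Hars2, for histidine, had the highest ratio of all members after loess with the brightest probe, though Wars2 (0.13) was the highest under median centring and Cars2 (0.46) with the median over probes. The intensity of Hars2 was 743 and 683 in KO against 510 and 535 in WT, a log2 ratio of 0.45 ± 0.13. Cars2, for cysteine, stood at 0.33 and 0.31, with a second probe at 0.71 and 0.50, and Yars2, for tyrosine, stood at 0.33 and 0.26. Under median centring Hars2, Cars2 and Yars2 were −0.01, −0.07 and −0.11, which is 0.36, 0.31 and 0.26 relative to all measured genes.

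The mitochondrial probes were dimmer than the cytosolic ones, and the offset added to the signals shrinks the ratios of dim probes. The median of the mean log2 intensity was 8.46 for mitochondrial and 10.3 for cytosolic members, against 8.66 for all measured genes. With an offset of 1 in place of 50 the medians of the log2 ratio were −0.14 and −0.99. With the software's processed signals they were −0.13 and −0.98. The medians of the compartments were as far apart in those settings as with the offset of 50. This covers the offset only, and other effects of a dim probe on its ratio were not tested.

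Enzymes for the same amino acid can be set side by side, since 17 combinations of a cytosolic and a mitochondrial member share one and 16 had both measured. Eprs and Fars2 each stand in 2 of the 16, so the combinations are not independent. The cytosolic gene had the lower log2 ratio on both arrays in 14 of 16, with a median difference of −0.74, and the higher one in 2. In 4 of them the ratios were at least 2-fold apart on both arrays. The cysteine enzymes Cars and Cars2 differed by −1.78 and −1.94, and the alanine enzymes Aars and Aars2 by −1.79 and −1.72. The isoleucine enzymes Iars and Iars2 differed by −1.47 and −1.24, and the tryptophan enzymes Wars and Wars2 by −1.33 and −1.32. In these 4 the cytosolic gene was called lower while the mitochondrial gene was not.

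The other differences were smaller. Eprs was below Ears2 by 1.06 and 0.87 and below Pars2 by 0.46 and 0.58. Vars was below Vars2 by 0.89 and 0.97, Lars below Lars2 by 1.09 and 0.71, and Sars below Sars2 by 1.25 and 0.54. Pars2, Vars2, Lars2 and Sars2 lay below 0 on both arrays as well, and Ears2 on 1 array. The tyrosine enzymes (Yars, Yars2) differed by −0.86 and −0.33 and the histidine enzymes (Hars, Hars2) by −0.61 and −0.57. For threonine (Tars, Tars2) the difference was −0.70 and −0.44, for methionine (Mars, Mars2) −0.61 and −0.49, and for Farsb and Fars2 −0.30 and −0.44. The exceptions were Farsa, which was above Fars2 by 0.65 and 0.52, and Rars, which was above Rars2 by 0.10 and 0.05, a difference close to 0. With the processed signals Mars was also above Mars2, whose dim probe then stood at −0.97. The cytosolic gene then had the lower ratio in 13 of 16 combinations.

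**Figure D3:**
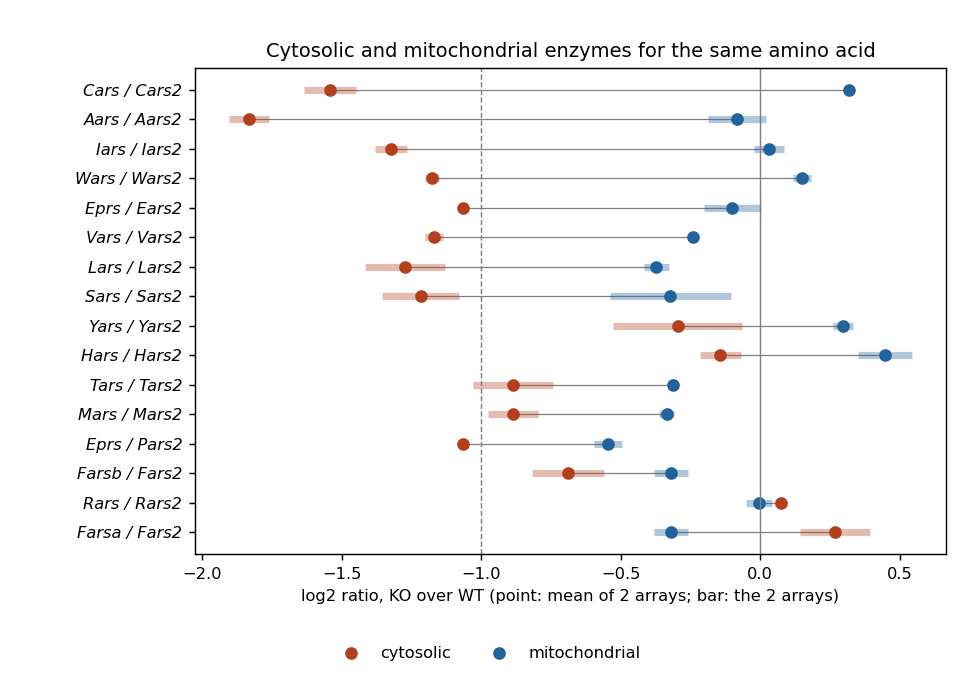
Each row sets a cytosolic against a mitochondrial gene for the same amino acid on the axis of the log2 ratio KO over WT; points are means of the 2 arrays and thick bars span the arrays. The cytosolic point lies to the left in 14 of 16 rows, most in Cars and Cars2 (−1.86 apart), and to the right for Farsa and Rars. Under median centring Farsa and Rars are below 0, as is the median of all measured genes (−0.37).

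Relatives of the synthetases outside the member list included further lower values, with 0 called of 10 measured and a median of −0.34. Aarsd1, an editing protein related to Aars, stood at −0.87 and −1.28, 2-fold lower on 1 array only. Dtd1, which removes D-amino acids from tRNA, stood at −0.80 and its relative Dtd2 at −0.34. Ptrh2, a peptidyl-tRNA hydrolase, stood at −0.04, and Ptrhd1 was not above background. Tarsl2, a second threonine enzyme of the cytosol, stood at −0.34. Pstk and Sepsecs, which convert serine to selenocysteine on its tRNA, stood at −0.28 and at no change (0.08 and −0.08 on the arrays). Prorsd1, related to the editing domain of bacterial proline synthetases, stood at 0.54 (0.37 and 0.72).

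Mitochondria obtain glutamine tRNA by converting glutamate on it, through the amidotransferase of Qrsl1, Gatb and Gatc. Qrsl1 stood at −0.05, Gatb at 0.09 and Gatc at −0.15. Mtfmt, which formylates the mitochondrial initiator tRNA, stood at 0.49 (0.56 and 0.41). None of these 4 was called.

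Other steps of tRNA making and use showed few calls. Of 70 measured genes of tRNA processing and modification, 1 was called lower and 0 higher, with a median of −0.03. The 1 was Xpot, the exporter of tRNA from the nucleus, at −1.80, and at the other end stood Pus3, a pseudouridine synthase, at 0.72, with Elp2 nearest the median. Of 24 genes of RNA polymerase III, which transcribes tRNA genes, 0 were called (median −0.08, from Polr1d at −0.70 to Brf1 at 0.69, with Polr3b nearest the median). Of 40 cytosolic translation factors, 1 was called lower (median −0.05): Eif2s2, the β subunit of the factor that brings initiator tRNA to the ribosome, at −1.59. The highest was Eif4b at 0.55, and Eif2b1 lay nearest the median. Of 12 mitochondrial translation factors, 0 were called (median 0.05, from Tsfm at −0.30 to Mtif2 at 0.67, with Guf1 nearest the median). The shares called lower in these 4 lists lay under the 6.88% of all measured genes.

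The list of uncharged tRNA sensing and Atf4 targets, none of them an aminoacyl-tRNA synthetase, stood lower than the aminoacyl-tRNA synthetases. It was chosen with earlier results of these data known, so its low values are no independent support. Of 35 measured genes, 21 were called lower (60%) and 0 higher, with a median of −1.50. Among all measured genes 6.88% were called lower and 2.46% higher. The lowest was Asns, which makes asparagine and is a standard Atf4 target, at −5.14. Phgdh, the first enzyme of serine synthesis, lay at the median with −1.50, and Impact, an inhibitor of Gcn2, was the highest at 0.59. Atf4 itself stood at −0.90 and −1.47, lower on both arrays but 2-fold on only 1. This list and the synthetases were measured on the same 2 RNA extracts, and a part of Atf4 in the synthetase ratios was not tested.

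**Figure D4:**
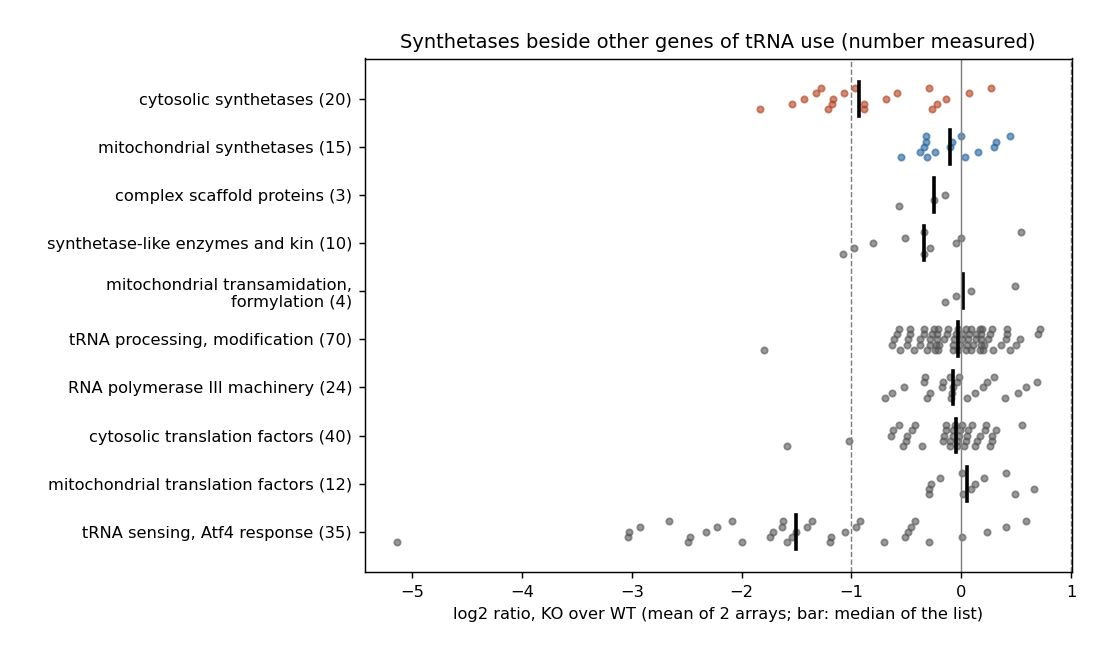
Each point is a measured gene placed by its log2 ratio KO over WT (mean of the 2 arrays), each row a list with its number of genes, and the black bar the median. The cytosolic synthetases (median −0.93) lie between the tRNA sensing and Atf4 list (median −1.50) and the other rows, whose medians lie from −0.34 to 0.05. Under median centring the median of all measured genes itself was −0.37. The lists were chosen with earlier results of these data known.

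Genes that interferon induces were examined because Wars is known to be one of them. Of 9 measured, 2 were called lower and 0 higher, with a median of −0.59, from Gbp2 at −1.68 to Ifit3 at −0.09, and Oas1a lay at the median. The shares over all measured genes were 6.88% lower and 2.46% higher, and a list of 9 is small for such a comparison.

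Markers of other cells differed between the extracts. The counts below stand beside 6.88% called lower and 2.46% called higher among all measured genes. Of the 9 measured CD4 T cell markers, 4 were called lower, with a median of −0.79, from Trat1 at −2.69 to Lck at 0.16 and with Cd3d at the median. Cd4, named here after its value was seen, stood at −1.18. Of the 9 markers, 6 lay below 0 on both arrays, 2 above 0 on both and 1 on different sides of 0. The summed intensity of this list, over different probes, was 52868 and 52519 in KO against 68141 and 66037 in WT. It was mostly that of Lck (20648 and 19039 against 17898 and 17583) and Cd3d (9909 and 10614 against 17949 and 17535), which were not called. Of 10 measured markers of CD8 T, NK and γδ T cells, 6 were called higher, with a median of 1.27, from Cd8b1 at −0.55 to Xcl1 at 4.03 and with Klra8 nearest the median. Their sums were 10280 and 10497 against 4000 and 3861, mostly those of Nkg7 (5441 and 5711 against 2751 and 2659), which was not called. Klrk1, Ncr1 and Tcrg-C1 were not above background. Of 8 measured myeloid and dendritic markers, 4 were called higher, with a median of 1.27, from Csf1r at 0.40 to Fcer1g at 4.35. Adgre1, Cd14, Cd68 and Itgax were not above background. The sums of this list, 37879 and 37343 against 19130 and 19593, were mostly those of Siglech (22984 and 23984 against 12915 and 13691) and Itgam (9309 and 8275 against 5526 and 5286), which were not called. Of 8 B cell markers 2 were measured and none called, Cd79b at 0.62 and Cd22 at 0.32, with sums of 468 and 445 against 364 and 310. Cd79a, Ms4a1, Pax5, Blk and Ebf1 were among those not above background. The part of these markers' cells in the synthetase ratios was not tested.

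The calls of the members were kept under most ways of processing, though some of these could not lose a call. All 9 genes stayed called in 10 of 12 alternatives. Either array alone and the 1.5-fold rule are looser than the rule used, and the series matrix repeats the processed signals. Under median centring 6 stayed called, and Eprs, Vars and Wars did not. In that setting the cytosolic median was −0.83 and −2.07 on the arrays, and the mitochondrial median 0.13 and −0.93. The arrays thus disagreed about the level of both groups, and on each of them the cytosolic median was the lower. The mitochondrial count was 0 in every one of the 12 alternatives.

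**Figure D5:**
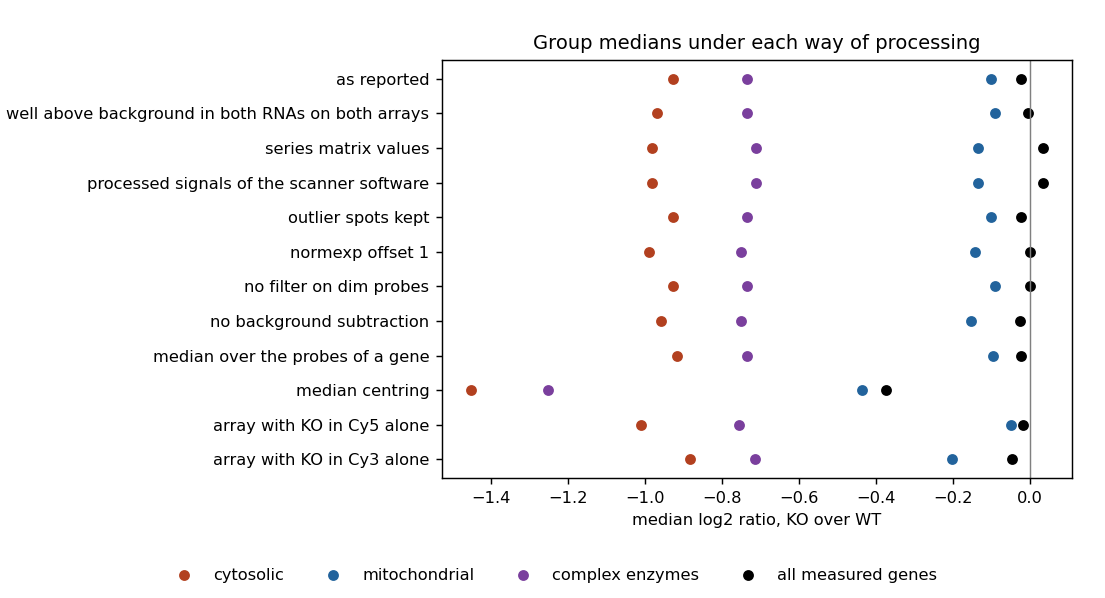
Each row is a way of processing and each point the median log2 ratio KO over WT of a group. The cytosolic median lies between −1.45 and −0.88 in all rows and the mitochondrial median between −0.44 and −0.05; the lowest values of each, and the median of all genes at −0.37, are those of median centring.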

How the data were processed

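Members and gene lists were chosen with earlier results of these data known. Agilent Feature Extraction made the scanner files, in version 10.7.3.1 per the file headers and in 10.5.1.1 per the submitters' processing notes. Per the file headers, the deposited intensity columns give the mean of every spot, its local background, and a signal processed by the software (background-subtracted, dye-normalized). The series matrix that the authors deposited is in log10 units, Cy5 over Cy3, and equals the software's own ratio (largest difference 0; column medians 0), which settles scale, direction and centring.

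Of 44397 spots, 1377 were controls and 0 saturated. Between 43.7% and 51.7% of the others were well above background, depending on RNA and array. Mean intensities were corrected with normexp (offset 50, all spots) and loess within each array (limma 3.58.1, R 4.3.3 with the data.table package in version 1.17.8). Controls took no part in the loess fit (weight 0) and were dropped, as were outlier spots (206 and 214). Spots of a probe were averaged, ratios turned to KO over WT, and the 2 arrays averaged. The intensities per RNA were also scaled between channels (Aquantile). A gene counted as measured where at least 1 RNA was well above background on each array. The brightest probe stood for a gene: 9 members had several probes and 27 had 1. Probes described as a synthetase but not named as a member were not used. The steps were tested on simulated data. Per the labels, 400 ng of cRNA in each dye was hybridised at 65 °C for 17 h.

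Accessions gave the names of 26010 of 39429 probes, through the RefSeq genes of GRCm38.p6. Symbols gave 3195, synonyms 930 and the member names 45, and 9249 probes kept the file's own name. Coordinates of probes are in mm9, as deposited; 6 members' probes span over 60 bases there. Exon and UTR positions of the probes were not assigned. Every member was named. Of the scaffold, transamidation and synthetase-like lists every gene was named except some that are not reported here, and of other lists at most 3. Motifs and plots used Python 3.11.15, pandas 2.3.3 and matplotlib 3.10.9.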

Additional observations from a re-analysis of the deposited data

How the results depend on the processing

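Of 12 alternatives, median centring in place of loess moved the group medians most. It gave medians of −1.45 for cytosolic, −0.44 for mitochondrial and −1.25 for complex enzymes, with −0.37 for all measured genes, so −1.08, −0.06 and −0.88 relative to these; the cause was not tested. Members called lower ranged from 6 (median centring) to 12 (1.5-fold). Over all measured genes, 1613 were lower and 865 higher with the processed signals or the series matrix, 2008 and 1009 at 1.5-fold, and the number higher was 609 with an offset of 1, 556 with KO in Cy5 alone and 111 with median centring. The median of all genes turned above 0 with the processed signals and the series matrix (0.03) and with an offset of 1 (9.150e-04). Signs turned for Rars2 in 4, Aars2 in 3 and Iars2 in 2 of 11 settings, and for Farsa, Rars, Cars2, Ears2, Hars2 and Yars2 in 1. The series matrix repeats the processed signals, so a turn under both counts the same values again. Nars2 had a value only with no filter on dim probes, and Yars and Mars2 had none with the strictest filter. No paired analysis was possible because both arrays hold the same 2 RNA extracts.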
